A study of Mus musculus and Mus musculus
Rattus norvegicus with 30 samples.

Results

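Pou5f1, Sox2, Nanog and Sall4 encode the core transcription factors of pluripotency, and they were followed through every readout in which Cdx2 was overexpressed. The 4 genes were taken by symbol out of the 19919 genes listed for both replicates of the mouse embryonic stem cell (mESC) RNA-seq, and all 4 were also present on the mouse (34923 genes) and rat (25245 genes) alleles of mouse-rat allodiploid embryonic stem cells (RMES cells). The genes were chosen by their mESC RNA levels against WT, in which Pou5f1 and Sox2 fell while Nanog rose, so these values are given as a description and without a test.

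In mESCs, RNA-seq covered 20 libraries, 2 for each of 10 conditions: WT, mCdx2-OE (mouse Cdx2), rCdx2-OE (rat Cdx2) and 7 mutants of rat Cdx2 named after the changes they carry (rCDX2_R1, R2, R3, R12, R13, R23 and R123). Change 1 replaces a tyrosine of the rat protein by phenylalanine, change 2 an alanine by serine, and change 3 removes an asparagine. The transgenes were under a Tet-On promoter that is active while doxycycline is present, all cells were kept in N2B27 medium with PD0325901, Chir99021 and LIF, and no label tells if the WT samples are the parental line or transgenic cells without doxycycline. RMES cells carry 1 haploid set of chromosomes from each species, and their RNA-seq covered 4 libraries, of which 2 are labelled WT, 1 mCdx2-OE and 1 rCdx2-OE. ATAC-seq of mESCs covered WT and mCdx2-OE, and ChIP-seq of Flag-tagged Cdx2 covered mCdx2-OE and rCdx2-OE in mESCs and in RMES cells, each with 1 library per condition.

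Pou5f1 encodes Oct4, a POU factor that binds DNA together with the HMG box factor Sox2 at composite Oct-Sox elements of many genes of the pluripotent cell, their own genes and Nanog included. Nanog is a homeodomain factor that stabilises self-renewal, and Sall4 is a zinc finger factor that activates Pou5f1 and recruits the NuRD histone deacetylase complex. In the early embryo Oct4 marks the inner cell mass and Cdx2 the trophectoderm, and the factors are known to repress each other there.

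RNA-seq depth ranged from 12698443 to 24315929 counts in the induced mESC libraries and from 74960057 to 94686029 in the WT pair. For the RMES libraries the mouse alleles held 36166038 to 41418817 counts and the rat alleles 29453412 to 35249756. Summed over 6 defining markers of mESCs (Zfp42, Esrrb, Tdgf1, Dppa5a, Utf1, Lin28a), the WT libraries held 3256 and 3339 CPM (counts per library scaled to a common total). Other cell types moved with the groups: summed over 7 markers of fibroblast feeder cells (Col1a1, Col1a2, Col3a1, Postn, Thy1, Dcn, Lum), the WT libraries held 34.6 and 34.4 CPM and the induced mESC libraries 1.28 to 4.42, and the part of these cells in the changes against WT was not tested. In bulk libraries, fewer cells of a type and less RNA per cell cannot be told apart.

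Levels are given as normalised CPM, the deposited counts divided by library sizes that were adjusted with TMM. Pou5f1 (ENSMUSG00000024406, chr17:35506018-35510772 on mm10, plus strand) stood at 1469.3 and 1469.8 CPM in the 2 WT libraries. It was at 525.9 and 534.7 CPM with mCdx2 and at 499.7 and 500.2 CPM with rCdx2, a log2 fold change against WT of −1.47 and −1.56. The 14 mutant libraries lay between these groups, from 640.9 to 942.3 CPM, and no mutant library overlapped WT or an intact construct. Of all genes, the mutants did not overlap the intact constructs for 30.2%, and the 18 induced libraries did not overlap WT for 50.3%. Across the 7 mutants the log2 fold change ran from −0.83 to −0.92, but with only replicate 1 it was −1.16 to −1.01 and with only replicate 2 −0.67 to −0.60.

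The replicates of the mutants were not alike for Pou5f1. In replicate 1 the 7 mutants held 640.9 to 711.6 CPM (median 650.6) and in replicate 2 they held 901.8 to 942.3 CPM (median 926.5), a gap that the WT pair and the intact constructs did not show. Cdx2 reads moved the other way, with a median of 94.4 CPM in replicate 1 and 44.3 CPM in replicate 2 of the mutants, and the part of the Cdx2 level in this gap was not tested. The replicates were counted by the authors in separate runs, and the labels give no culture or date for them.

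Sox2 (ENSMUSG00000074637, chr3:34650405-34652461, plus strand) is a single-exon gene that lies within the long non-coding transcript Sox2ot. Its level was 466.3 and 491.2 CPM in WT, 226.0 and 263.2 CPM with mCdx2, and 202.7 and 236.1 CPM with rCdx2. The log2 fold change was −0.97 with mCdx2 and −1.13 with rCdx2. The mutants again lay in between, from 265.1 to 367.3 CPM, with log2 fold changes of −0.46 (R23) to −0.77 (R2), and the lowest mutant library stood just above the highest mCdx2 library.

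Nanog (ENSMUSG00000012396, chr6:122707489-122714633, plus strand) went up where the other 3 genes went down. It stood at 539.2 and 541.3 CPM in WT, at 927.3 and 798.2 CPM with mCdx2, and at 836.1 and 718.9 CPM with rCdx2. The log2 fold change was 0.68 with mCdx2, 0.53 with rCdx2 and 0.35 (R2) to 0.82 (R13) with the mutants. Every induced library lay above both WT libraries, and the mutants spanned 686.4 to 969.9 CPM, on both sides of the intact constructs.

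Sall4 (ENSMUSG00000027547, chr2:168748332-168767943, minus strand) changed least of the 3 genes that went down in the intact constructs. Its level was 351.1 and 353.1 CPM in WT, 221.5 and 235.1 CPM with mCdx2, and 224.0 and 241.3 CPM with rCdx2, a log2 fold change of −0.63 and −0.60. In the mutants it ran from 177.5 to 287.5 CPM, with log2 fold changes of −0.37 (R1) to −0.83 (R123), so that some mutants lay below the intact constructs and others above them.

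The share of genes past an adjusted p of 0.05 and a 2-fold change against WT was 33.4% of 16000 genes for mCdx2, 34.5% for rCdx2, 23.2% for R1, 23.4% for R2, 25.6% for R3, 23.7% for R12, 27.8% for R13, 28.7% for R23 and 28.9% for R123, and every construct was set against the same 2 WT libraries. Over both replicates Pou5f1 changed by more than 2-fold with mCdx2 and rCdx2 and Sox2 with rCdx2. With only replicate 1, Pou5f1 did so with each of the 7 mutants too, and Sox2 also with mCdx2 (−1.04). Nanog and Sall4 were under 2-fold with all 9 constructs.

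**Figure D1:**
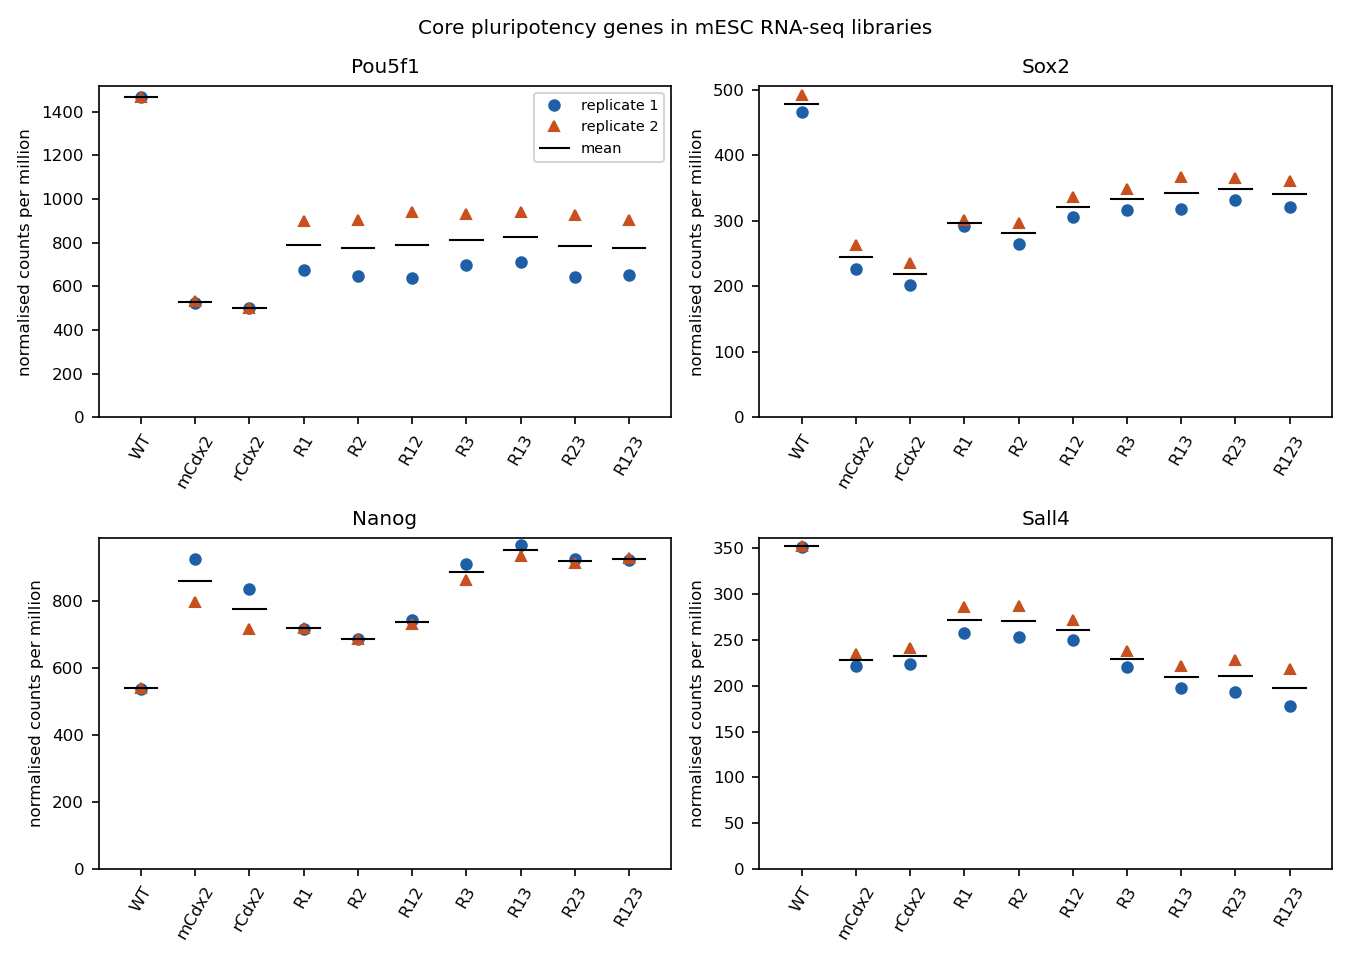
Normalised CPM of Pou5f1, Sox2, Nanog and Sall4 in the 20 mESC libraries, by condition (horizontal axis), with a symbol for each replicate and a line at the mean of the 2 libraries. Pou5f1 is lowest with the intact constructs (499.7 to 534.7 CPM) and the 2 replicates of every mutant lie apart, while Nanog is above WT with every construct.

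Whether the constructs differed from each other was tested by contrasts that set no construct against WT. The fit held all 20 libraries, so the WT pair entered the filter and the estimate of the spread. Between mCdx2 and rCdx2 no difference was detected for any of the 4 genes with edgeR's quasi-likelihood test (adjusted p of 0.998 to 1). The log2 difference (mCdx2 minus rCdx2) was 0.08 for Pou5f1 (95% interval −0.40 to 0.57), 0.16 for Sox2 (−0.07 to 0.38), 0.15 for Nanog (−0.02 to 0.32) and −0.03 for Sall4 (−0.25 to 0.20). Differences of up to the ends of these intervals therefore remain possible. Of all genes tested, 3 passed (0.0187%).

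Among all 9 constructs, 3 of the 4 genes differed at an adjusted p under 0.05 in the joint quasi-likelihood test, against 56.9% of all genes. These were Sox2 (adjusted p = 3.1e-04), Nanog (adjusted p = 3.0e-04) and Sall4 (adjusted p = 0.00812), while Pou5f1 gave an adjusted p of 0.0648. The call for Pou5f1 depended on how the replicates were treated. With the replicate as a block Pou5f1 differed among the constructs, but the replicate numbers were not taken to pair the samples. With a replicate left out, the range of its means over the constructs was 0.51 to 0.91 on the log2 scale. Each construct then had a single library, so no call is given. In the order of the Pou5f1 means, which ran from 826.9 CPM (R13) to 777.5 CPM (R2), each mutant overlapped its neighbours, with the gap between the replicates counted in this spread.

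Set against intact rCdx2, the average of the 7 mutants was higher by 0.67 on the log2 scale for Pou5f1 (standard error 0.18) and by 0.56 for Sox2 (0.08), a contrast added after the values were seen. For Nanog the difference was 0.09 (0.06) and for Sall4 0.01 (0.08). Of 16000 genes, 55.6% passed in this contrast (adjusted p under 0.05 in edgeR). R123 carries all of the changes, which the paper places in the DNA-binding domain of mCdx2. Its log2 fold changes against WT were −0.92 for Pou5f1 and −0.49 for Sox2, where mCdx2 gave −1.47 and −0.97. Whether the gap comes from the changes or from the mutant cell lines as a set was not tested. The same mutant libraries held 239.0 to 372.5 CPM summed over 12 trophoblast stem cell markers (Eomes, Elf5, Tfap2c, Gata3, Hand1, Krt8, Krt18, Esx1, Bmp4, Fgfr2, Ets2, Ascl2). This sum was 957.8 and 887.4 CPM in the rCdx2 libraries and 200.9 and 205.0 CPM in WT. The markers did not move together: with rCdx2 against WT, Krt18 (5.06) and Krt8 (4.10) rose, while Bmp4 (−3.14) and Eomes (−1.22) fell. Over the 6 mESC markers the mutant libraries held 1912 to 2499 CPM, against 1386 and 1290 CPM with rCdx2.

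The loss of the asparagine (change 3) split the mutants for Nanog and Sall4. The 8 libraries of the 4 mutants with change 3 held 865.8 to 969.9 CPM of Nanog (median 924.2), and the 6 libraries of the 3 mutants without it held 686.4 to 743.6 CPM (median 720.0). For Sall4 the order was the reverse, with 177.5 to 238.2 CPM (median 219.1) in the mutants with change 3 and 249.6 to 287.5 CPM (median 264.9) in those without. Neither gene overlapped between these groups of libraries, and the same held for 19.5% of all genes. Sox2 was higher with change 3 (median 340.4 against 299.0 CPM) but the groups overlapped, and Pou5f1 was nearly level (808.2 against 788.9 CPM).

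In an additive model of rCdx2 and the 7 mutants, change 3 raised Nanog by 0.33 on the log2 scale (standard error 0.04, adjusted p = 3.0e-05 with edgeR) and Sox2 by 0.30 (0.07, adjusted p = 0.00322). It lowered Sall4 by 0.29 (0.07, adjusted p = 0.00283), and the value for Pou5f1 was 0.18 (0.14, adjusted p = 0.328). Thus 3 of the 4 genes passed, where 36.6% of 15114 genes did. With replicate 1 alone or replicate 2 alone the effects were of the same size, 0.29 to 0.31 for Sox2 and −0.32 to −0.26 for Sall4, but these 2 calls were lost (adjusted p of 0.0518 and 0.117 for Sox2, 0.0666 and 0.0571 for Sall4). Nanog still passed with 0.32 to 0.35. The paper places change 3 in mCdx2 as well. Against rCdx2, mCdx2 gave −0.03 for Sall4 (interval −0.25 to 0.20), which does not reach the −0.29 of change 3. For Nanog it gave 0.15 (−0.02 to 0.32), just short of 0.33. For Sox2 it gave 0.16 (−0.07 to 0.38), which covers 0.30. The gap for Sall4 between this pair and the mutants was not tested.

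Because rCdx2 stood apart from all mutants, the model was also fitted to the 14 mutant libraries alone, an alternative chosen after seeing the data. The effects of change 3 were then 0.38 for Nanog (adjusted p = 1.5e-08), 0.20 for Sox2 (adjusted p = 0.00250), −0.37 for Sall4 (adjusted p = 1.8e-05) and 0.02 for Pou5f1 (adjusted p = 0.909), with 51.8% of genes past the threshold in this edgeR fit. Mutants with change 3 held fewer Cdx2 reads, with a median of 53.1 CPM (37.2 to 94.4) against 106.8 CPM (60.6 to 146.6), and the effect of change 3 on Cdx2 itself was −0.74 (adjusted p = 0.0367). The part of the Cdx2 level in the effects on Nanog, Sox2 and Sall4 was not tested.

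For change 1 and change 2 none of the 4 genes passed, and of all genes 0 passed for either change (0.00% in edgeR), against 1995 and 1569 genes at an unadjusted p under 0.05 and 24 and 2 genes with DESeq2. The values nearest to a call were those of Sox2, 0.16 for change 1 (95% interval 0.01 to 0.30) and 0.13 for change 2 (−0.02 to 0.28). In the 14 mutant libraries alone, without rCdx2, these values were 0.06 (−0.04 to 0.17) and 0.04 (−0.07 to 0.14). For Nanog the intervals in the 16 libraries were −0.07 to 0.12 for change 1 and −0.13 to 0.06 for change 2. An effect of the size of change 3 (0.33) lay outside them.

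**Figure D2:**
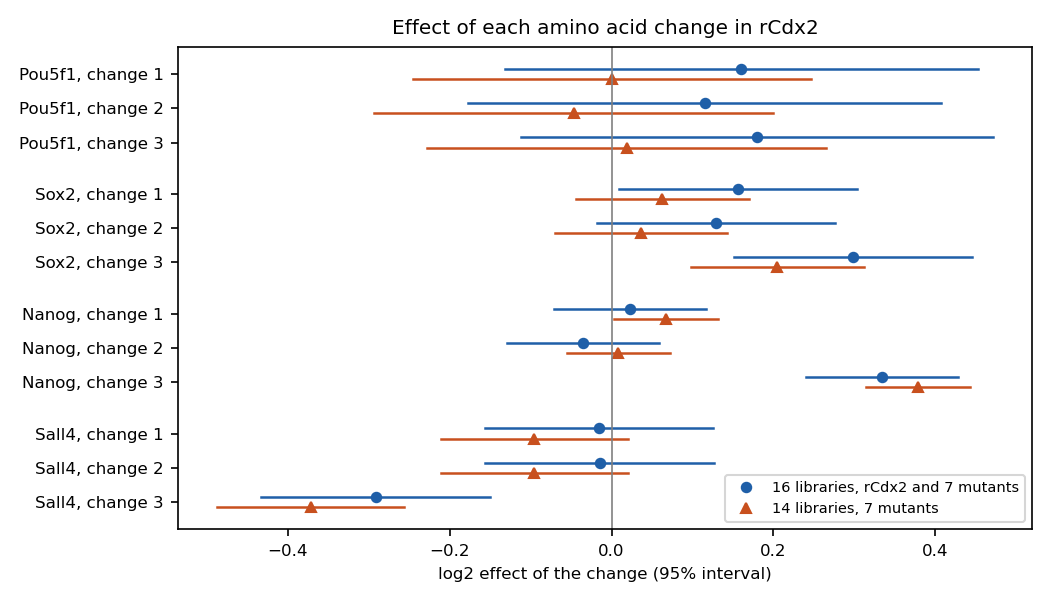
Additive log2 effect of each amino acid change (horizontal axis, with 95% intervals) on the 4 genes, in the 16 libraries of rCdx2 and the 7 mutants (circles) and in the 14 mutant libraries (triangles). Only the intervals of change 3 for Sox2, Nanog and Sall4 stay clear of 0 in both fits, above it for Sox2 (0.30) and Nanog (0.33) and below it for Sall4 (−0.29).

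The 4 genes did not vary as a block over the 9 constructs. Pou5f1 and Sox2 had similar profiles of condition means (Pearson r = 0.91 over 9 conditions), Nanog and Sall4 had opposite profiles (r = −0.94), and Pou5f1 was nearly unrelated to Nanog (r = 0.12) and Sall4 (r = 0.02). These correlations are descriptions over conditions that share their construct design and replicate runs.

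Genes that Oct4 and Sox2 are known to activate followed in part. Of 9 such target genes, 7 fell and 2 rose at an adjusted p under 0.05 with mCdx2, with a median log2 fold change of −0.75 (all genes −0.03, of which 34.0% rose and 35.8% fell at any fold). Utf1, a chromatin-associated factor of undifferentiated cells, fell by 3.20 on the log2 scale, Dppa4 fell by 1.76 and Tdgf1, a Nodal co-receptor, fell by 1.22. Spp1 (osteopontin) rose by 0.93 and Fbxo15 by 0.47. With rCdx2 the counts were also 7 and 2, with a median of −0.80, where 34.4% of all genes rose and 36.2% fell, and the medians of the 9 genes in the 7 mutants ran from −0.23 to 0.00. With change 3, Fgf4 (0.58), Tdgf1 (0.56), Spp1 (0.48), Fbxo15 (0.31), Zfp42 (0.25) and Trim24 (0.23) rose, where 18.2% of all genes did, and none of the 9 fell at an adjusted p under 0.05. Utf1 had a value of −0.59 (95% interval −1.07 to −0.11, adjusted p = 0.0532 in edgeR), of the same size as that of Fgf4 and opposite in sign.

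Among 12 measured regulators of Pou5f1 and Nanog, 6 rose and 5 fell with mCdx2, where 34.0% of all genes rose and 35.8% fell. Nr2f2, an orphan nuclear receptor that represses Pou5f1, rose by 3.20, and Nr5a2, a receptor that activates it, fell by 1.01. Klf4 and Prdm14, activators of the naive network, rose by 0.58 and 0.53, whereas Foxd3, Esrrb and Zfp281 fell by 0.55, 0.41 and 0.50. With rCdx2 5 rose and 5 fell (34.4% and 36.2% of all genes), and the values were 3.62 for Nr2f2 and −1.15 for Nr5a2. Nr6a1, another receptor on this list, rose by 0.40 with mCdx2 and by 0.38 with rCdx2. It fell by 0.58 with R1 and by 0.49 on the RMES rat allele, and a link of these regulators to the Pou5f1 level was not tested. Change 3 lowered Nr2f2 by 1.02 (adjusted p = 0.0137 in edgeR) and raised Prdm14 by 0.49 (adjusted p = 3.3e-06).

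Of 13 subunits of NuRD, 8 fell and 3 rose with mCdx2 (35.8% and 34.0% of all genes), with a median of −0.37. Mbd3, the methyl-binding-domain subunit that NuRD of mESCs depends on, fell by 1.31, and its alternative Mbd2 rose by 0.98. With rCdx2 9 fell and 3 rose (36.2% and 34.4% of all genes). With change 3 7 of the 13 fell and none rose, where 18.4% of all genes fell. Of 12 protein partners of Oct4 and Nanog, 9 fell with each of the intact constructs, among them Nr0b1 (−1.89 with mCdx2), Zscan10 (−1.56) and Trim28 (−1.17), and only Tet2 rose (1.36). Of 20 other POU, SOX and SALL genes, 11 fell and 2 rose with mCdx2, with the lowest values for Pou4f2 (−2.88), Sox11 (−2.51), Pou2f3 (−2.14) and Sox15 (−2.10). Sall1, Sall2 and Sall3 fell by 0.32, 0.49 and 1.43, beside 0.63 for Sall4.

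In RMES cells the 4 genes were read on each genome. The libraries labelled WT already held Cdx2 reads, 129.1 and 126.6 CPM on the mouse and 452.8 and 439.6 CPM on the rat allele. The mESC WT libraries held 1.36 and 1.21 CPM. The RMES contrast is therefore not between absence and presence of Cdx2, unlike that of mESCs. Cdx2 reached 967.5 CPM on the mouse allele in the mCdx2-OE library and 879.8 CPM on the rat allele in the rCdx2-OE library. On the opposite alleles it was 4.45 CPM (mouse allele, rCdx2-OE) and 47.2 CPM (rat allele, mCdx2-OE), below the libraries labelled WT, so the species of the Cdx2 reads changed too. Both induced libraries were taken as replicates of Cdx2 induction, as in the study's methods. With this pair Cdx2 itself was not called on the mouse (1.93, adjusted p = 0.136 in edgeR) or the rat allele (0.06, adjusted p = 0.942).

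Pou5f1 fell on both alleles. On the mouse allele it went from 1926 and 1934 CPM in the libraries labelled WT to 409.0 (mCdx2-OE) and 367.7 CPM (rCdx2-OE), a log2 fold change of −2.31 (standard error 0.06, adjusted p = 6.3e-12 in edgeR). On the rat allele it went from 1726 and 1720 CPM to 487.9 and 471.1 CPM, a change of −1.85 (0.06, adjusted p = 9.5e-13). Sox2 fell from 457.1 and 465.5 to 169.2 and 163.4 CPM on the mouse allele (−1.47, 0.06, adjusted p = 1.7e-10) and from 684.0 and 701.8 to 193.3 and 170.1 CPM on the rat allele (−1.93, 0.07, adjusted p = 2.1e-12). The groups did not overlap for either gene, as for 91.3% of all genes on the mouse and 91.3% on the rat allele.

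Nanog, which rose in mESCs, was lower after induction on both RMES alleles. On the rat allele it fell from 684.6 and 710.4 to 330.6 and 312.5 CPM (−1.12, standard error 0.06, adjusted p = 2.2e-10 in edgeR). On the mouse allele it went from 615.1 and 643.9 to 467.8 and 486.8 CPM (−0.40, 0.06, adjusted p = 2.2e-05), under 2-fold, and with library totals in place of TMM the value was 0.021 (adjusted p = 0.730). That scaling moved the median of all mouse-allele genes from 0.08 to 0.50 and of all rat-allele genes from 0.07 to 0.28, so that Nanog stayed below the median gene in each case. Sall4 fell from 556.0 and 559.8 to 224.3 and 220.9 CPM on the mouse allele (−1.33, 0.06, adjusted p = 3.0e-10) and from 475.7 and 463.4 to 240.2 and 226.0 CPM on the rat allele (−1.01, 0.06, adjusted p = 5.9e-10).

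Thus 3 of the 4 genes passed 2-fold and an adjusted p under 0.05 on the mouse allele, where 44.5% of 16887 genes did (16.1% lower), and all 4 on the rat allele, where 42.5% of 14627 genes did (14.2% lower). With library totals the values of Sall4 on the mouse allele (−0.91) and of Nanog (−0.91) and Sall4 (−0.80) on the rat allele fell under 2-fold, and Sall4 on the rat allele was also under 2-fold without WT replicate 1 and without the rCdx2-OE library (−0.97).

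**Figure D3:**
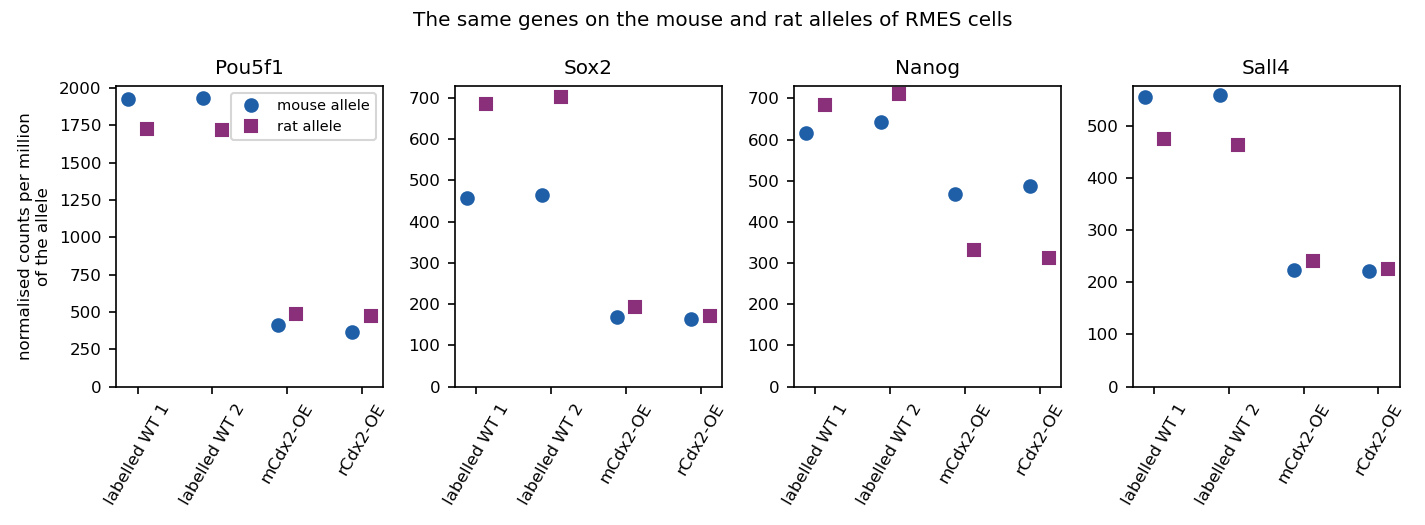
Normalised CPM of the 4 genes on the mouse (circles) and rat (squares) alleles in the 4 RMES libraries, each allele scaled to its own total, so that levels can be compared within an allele and not between alleles. All 4 genes are lower in both induced libraries, Pou5f1 the most on the mouse allele (−2.31) and Nanog the least there (−0.40).

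The size of the response differed between the alleles for each of the 4 genes, in a test of the interaction with the library as a block (62.1% of 13605 genes with the same symbol on both alleles passed). The rat minus the mouse response was 0.49 for Pou5f1 (standard error 0.03, adjusted p = 7.3e-14 in edgeR) and 0.34 for Sall4 (0.04, adjusted p = 9.3e-08), which fell more on the mouse allele. It was −0.44 for Sox2 (0.04, adjusted p = 2.8e-09) and −0.69 for Nanog (0.04, adjusted p = 3.5e-14), which fell more on the rat allele. The direction and call of all 4 held when each library was left out and with each scaling. Mouse and rat genes were paired by symbol, and reads that match both genomes may be assigned unevenly, which was not tested.

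The lists were read in RMES cells as well, where 42.8% of all genes rose and 39.0% fell at an adjusted p under 0.05 on the mouse allele, and 43.5% and 39.0% on the rat allele. On the mouse allele all 9 Oct4-Sox2 targets fell, Fbxo15 by 1.79 and Spp1 by 0.18 included, and on the rat allele 7 of 8 fell, while Fgf4 rose by 0.51. On the mouse allele 10 and on the rat allele 9 of the 13 NuRD subunits fell, with Mbd3 lower by 0.97 and 1.41 on the log2 scale, and Mbd2 rose by 1.52 and 2.20. Of the regulators, 4 rose and 9 fell of 13 on the mouse allele, and 3 rose and 7 fell of 10 on the rat allele. Nr2f2 rose by 2.23 on the mouse and 1.79 on the rat allele, and Nr5a2 fell by 2.04 and 2.80. Tcf7l1, a repressor downstream of Wnt, rose by 1.24 and 3.13, and Klf4, which rose in mESCs, fell by 0.79 and 0.77. Prdm14, which also rose in mESCs, rose by 0.35 on the mouse allele and fell by 2.37 on the rat allele. Of 8 primitive endoderm markers, 5 rose and 2 fell on the mouse allele and 3 rose and 2 fell on the rat allele. With mCdx2 in mESCs 6 of these markers rose and none fell, where 34.0% of all genes rose and 35.8% fell. In RMES cells the single markers differed. Gata4 rose by 3.30 on the mouse and 3.32 on the rat allele, Dab2 by 4.04 and 4.71 and Pdgfra by 3.03 and 2.95, whereas Lama1, a laminin subunit, fell by 2.61 and 0.51. Their summed level went from 236.5 and 242.2 to 52.9 and 55.5 CPM on the mouse allele, of which Lama1 alone made up 229.9 and 237.2 CPM in the libraries labelled WT. On the rat allele the sum went from 437.4 and 451.6 to 305.5 and 347.0 CPM, and in mESCs from 44.8 and 47.5 CPM to 90.6 to 122.6 CPM. The part of such cells in the RMES response was not tested.

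Chromatin around the genes was read by ATAC-seq, which measures open DNA, as scaled reads per peak in 1 WT and 1 mCdx2-OE library. Intervals are exact binomial 95% intervals and cover counting error only, and without replicates there is no test. Within 30 kb of the 4 gene starts lay 66 peaks, of which 52 held at least 40 scaled reads over both libraries. Of these, 3 opened and 9 closed by over 2-fold and 38 were lower in mCdx2-OE, where of all peaks 13.7% opened, 20.5% closed and 55.3% were lower.

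The peak over the start of Pou5f1 held 734.7 scaled reads in WT and 381.5 in mCdx2-OE, a log2 ratio of −0.94 (−1.13 to −0.77). Over the start of Sox2 it held 374.4 and 492.7 reads, a ratio of 0.40 (0.20 to 0.60), and over that of Sall4 186.0 and 174.7 reads, a ratio of −0.09 (−0.40 to 0.22). Over the start of Nanog it held 204.9 and 94.7 reads, a ratio of −1.10 (−1.47 to −0.76), so that this peak closed while Nanog RNA was higher in the same condition. Of all peaks over starts of protein-coding genes, 10.2% opened, 2.39% closed, 24.6% were lower and the median ratio was 0.34. Thus Nanog RNA was higher with a start peak that closed, while Sox2 RNA was lower with a start peak (0.40) near this median. Without scaling to the library totals the 4 ratios were −0.51, 0.83, 0.35 and −0.67, and the sign of Sall4 turned.

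The promoters of Pou5f1 and Nanog are shown because their start peaks lost reads, as the 250 bases before the start in RefSeq (GRCm38.p6, plus strand). In the Pou5f1 promoter capitals mark a match to AGGTCA, the half-site of nuclear receptors such as Nr2f2 and Nr5a2, and in the Nanog promoter a match to the composite Oct-Sox element, which lies on the minus strand.
Pou5f1 promoter, chr17:35505782-35506031: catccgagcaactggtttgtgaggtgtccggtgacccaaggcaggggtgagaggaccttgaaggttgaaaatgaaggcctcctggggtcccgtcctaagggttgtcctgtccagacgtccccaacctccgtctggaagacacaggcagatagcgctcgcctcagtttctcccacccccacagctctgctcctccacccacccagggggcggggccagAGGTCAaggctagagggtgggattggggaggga
Nanog promoter, chr6:122707239-122707488: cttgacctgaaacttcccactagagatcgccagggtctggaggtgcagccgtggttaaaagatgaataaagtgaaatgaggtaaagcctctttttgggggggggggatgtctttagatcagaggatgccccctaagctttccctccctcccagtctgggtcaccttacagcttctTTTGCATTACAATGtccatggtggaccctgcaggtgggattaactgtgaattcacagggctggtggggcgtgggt
Both motifs were searched on both strands. The half-site was found in 4607 (14%) of 32851 promoters of this length, those of Sox2 and Nanog included. The Oct-Sox element was found in 6 of the 32851 (0.0183%). It was searched as a single fixed pattern of letters, so this share does not show how rare Oct-Sox elements are. Neither of these stretches holds TTTATNG. RefSeq lists 2 promoters for each of these genes, and those shown are 1 of the 2. The other Pou5f1 promoter holds 1 match to TTTATNG and no half-site, and the other Nanog promoter holds the Oct-Sox element and neither of the other motifs.

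Away from the starts the genes differed in how many peaks passed 2-fold. None of the 14 peaks near Pou5f1 did, although 12 of them were lower. Near Nanog 3 of 16 closed, at the start and 2.3 kb upstream and 1.3 kb downstream of it, in the first part of the gene. Near Sox2 the peak 3.9 kb upstream closed, from 49.5 to 6.95 reads (−2.67, −4.13 to −1.72), as did the peak 18.1 kb downstream (−1.01), and the peaks 6.8 kb and 11.5 kb downstream opened, from 27.1 to 83.4 reads (1.59) and from 22.4 to 62.6 reads (1.44). Near Sall4 1 peak opened and 4 closed. The opened peak, 28.4 kb upstream, went from 3 raw reads in WT to 74 in mCdx2-OE (log2 ratio of scaled reads 3.85, 2.58 to 6.50), and the peaks 23.4 kb and 1.4 kb upstream closed with ratios of −2.18 and −1.73.

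Cdx2 ChIP-seq of mESCs placed 10 peaks within 30 kb of the 4 starts, 2 near Pou5f1, 3 near Sox2, 3 near Nanog and 2 near Sall4, and no peak lay over a start. Of 21911 genes, 48% had at least 2 such peaks and 28.6% at least 3, with a median of 1. Of the 10, 1 weaker peak lay in an exon of Nanog and 1 in an intron of Sall4. Which protein each count column stands for was read from column names by analogy and is an inference. The strongest peak near Sox2 lay 11.6 kb downstream with 271 reads for mCdx2 and 196 for rCdx2, above 97.5% of all peaks. Near Nanog it lay 10.1 kb downstream with 188 and 133 reads (above 93.9%), and near Sall4 28.4 kb upstream with 157 and 150 reads (above 93.4%). The stronger of the 2 peaks near Pou5f1 was weak, 18.4 kb upstream with 27 and 26 reads (above 18.3%).

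The central 300 bases of the strong Cdx2 peaks are shown because these sites carry most Cdx2 reads within 30 kb of the Sox2, Nanog and Sall4 starts. Beyond this window, a peak 52.1 kb upstream of Nanog held more, with 266 reads for mCdx2 and 284 for rCdx2 (above 98.5%). The bases shown are given on the plus strand of mm10. Capitals mark matches to the Cdx2 motif TTTATNG on either strand (CNATAAA on the minus strand).
Sox2 Cdx2 peak, chr3:34661877-34662176: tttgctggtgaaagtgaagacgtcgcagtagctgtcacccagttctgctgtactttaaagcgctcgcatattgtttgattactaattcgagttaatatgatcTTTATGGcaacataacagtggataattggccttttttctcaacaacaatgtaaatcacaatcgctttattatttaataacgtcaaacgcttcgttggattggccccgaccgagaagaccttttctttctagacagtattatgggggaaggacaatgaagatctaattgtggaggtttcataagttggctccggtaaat
Nanog Cdx2 peak, chr6:122717485-122717784: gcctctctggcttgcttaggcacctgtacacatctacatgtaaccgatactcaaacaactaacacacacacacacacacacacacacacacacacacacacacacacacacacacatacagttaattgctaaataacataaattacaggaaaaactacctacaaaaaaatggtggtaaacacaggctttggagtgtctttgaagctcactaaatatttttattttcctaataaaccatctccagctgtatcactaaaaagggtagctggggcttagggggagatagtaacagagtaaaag
Sall4 Cdx2 peak, chr2:168796177-168796476: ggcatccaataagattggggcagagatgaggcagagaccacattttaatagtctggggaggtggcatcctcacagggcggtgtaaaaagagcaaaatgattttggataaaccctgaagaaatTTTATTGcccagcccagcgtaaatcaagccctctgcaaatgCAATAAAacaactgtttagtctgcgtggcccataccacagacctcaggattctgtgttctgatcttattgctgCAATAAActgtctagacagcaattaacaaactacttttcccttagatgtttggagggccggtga
The window near Sall4 holds 3 matches and that near Sox2 1, while the window near Nanog and the weak peak near Pou5f1 hold none of these letters. The motif was present in 54.3% of all 91665 Cdx2 peak windows and in 9.64% of 104277 ATAC windows without a Cdx2 peak.

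Each of these 3 strong peaks coincided with an ATAC peak that was higher in mCdx2-OE. They are the opened peaks at Sox2 (11.5 kb) and Sall4 (−28.4 kb) and, at Nanog, a peak of 9.42 and 26.9 scaled reads, under the 40-read minimum. Of all ATAC peaks that overlap a Cdx2 peak, 54.8% opened and 4.18% closed. In all, 8 ATAC peaks near the 4 genes overlapped a Cdx2 peak, and none of the 9 closed peaks near them did. The 3 strong peaks and the weak one near Pou5f1 were also overlapped by a Cdx2 peak in RMES cells on the mouse genome, 4 of 10, where 64.8% of all mESC Cdx2 peaks were.

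Between mouse and rat Cdx2 the strong peaks differed little. The log2 ratio of mCdx2 to rCdx2 reads was 0.30 at Sox2 (0.03 to 0.57), 0.33 at Nanog (0.01 to 0.67) and −0.10 at Sall4 (−0.43 to 0.23), all under the 2-fold that 0.912% of peaks passed. In RMES cells the same peaks gave 0.60 at Sox2 (0.18 to 1.04), −0.19 at Nanog (−0.62 to 0.24) and −0.10 at Sall4 (from 45 and 54 reads).

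**Figure D4:**
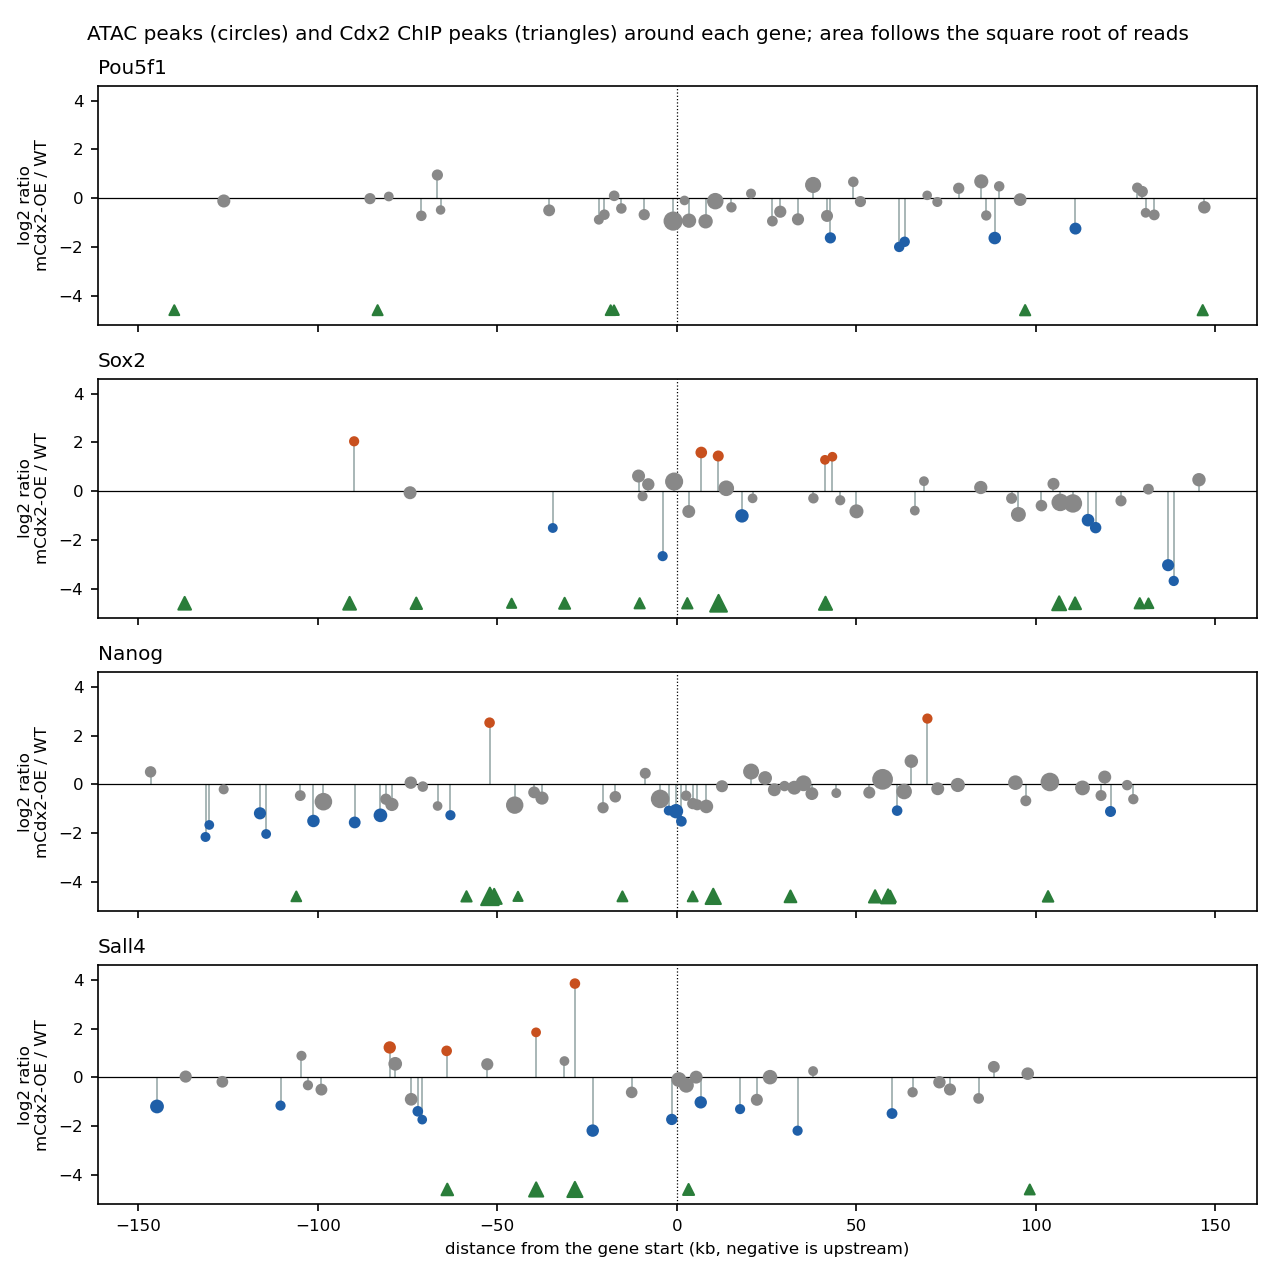
ATAC peaks with at least 40 scaled reads (circles) and mESC Cdx2 ChIP peaks (triangles) within 150 kb of each gene start, with the distance from the start on the horizontal axis and the log2 ratio of mCdx2-OE to WT ATAC reads on the vertical axis (1 library each). Orange circles opened and blue circles closed by over 2-fold, triangles are drawn at the foot of each panel, and within 30 kb no peak passed 2-fold near Pou5f1 while 3 closed around the start of Nanog.

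Genes whose start lies within 60 kb were compared with the members. Near Pou5f1, Tcf19 (10.8 kb from its start), Cchcr1 (11.1 kb) and Psors1c2 (27.2 kb) fell with mCdx2 by 0.83, 1.10 and 1.83 on the log2 scale, and Cdsn (46.1 kb) gave 0.03 and H2-Q10, on the other side, 0.11. In RMES cells, where Pou5f1 fell on both alleles, Tcf19 rose by 1.93 on the mouse and by 2.08 on the rat allele. Near Sall4, Atp9a (25.5 kb) gave 0.14 with mCdx2, and no annotated neighbour in the count tables started within 60 kb of Sox2 or Nanog.

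Over the 10 mESC condition means of 9116 genes with at least 10 CPM on average, the profile closest to Pou5f1 was that of Syce2 (Pearson r = 0.997), followed by Rcc2 and 4933404O12Rik. The closest to Sox2 were Myo10, Sdhb and Pald1, to Nanog Malt1, Casp9 and Qsox2, and to Sall4 Dhx37, Wdr33 and Cdc20, with r of 0.988 to 0.996. Over the 9 induced conditions the closest were Napepld, Slc17a9 and Rpl13 for Pou5f1, Pask, Aplp2 and Dmd for Sox2, Zfp652, Fam169b and Sipa1l2 for Nanog, and Dhx37, 2610507B11Rik and Plk1 for Sall4. Dhx37 was on both lists for Sall4, and no other gene was named in both.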

How the data were processed

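All values used here are raw read counts as deposited by the authors. The authors aligned mESC RNA reads to mm10 with STAR 2.7.0d and counted them by strand per gene symbol with featureCounts on an Ensembl annotation without pseudogenes, each replicate in a run of its own. Reads shared with retrocopies of Pou5f1 or Nanog are therefore not resolved. RMES reads were assigned to mm10 or rn6 by edit distance. ATAC-seq and ChIP-seq reads were aligned by the authors with Bowtie2 2.3.4.3 and cleared of duplicates, and reads of each library were counted in peaks that MACS2 had called after merging libraries, so peaks were not called per library. A shift of ATAC reads is not given in the sources used here.

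Counts were tested in R 4.3.3 with edgeR 4.0.16 (TMM, filterByExpr, quasi-likelihood F test) and limma 3.58.1, with Benjamini-Hochberg adjustment over all genes and a threshold of 0.05. A 2-fold change was also required against WT. The 20 mESC libraries shared 1 model, the amino acid changes came from an additive model of 16 libraries, and the alleles were compared by an interaction term in a model blocked on library. DESeq2 1.42.0 was an alternative. Labels do not say whether replicates are separate cultures, so p-values measure the spread between these libraries, whose variance was 2.18 to 9.05 times that of read sampling. The script was tested on simulated data with 200 changed genes.

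Reads per peak were brought to the mean of the library totals (6109353 and 8277850 ATAC reads, 5550846 and 6223794 mESC ChIP reads, 3387074 and 4357448 RMES ChIP reads on the mouse genome) with a pseudocount of 1. Positions are those of GENCODE on GRCm38, and rat positions were not used here. Promoters from RefSeq matched 3 of the 4 genes by symbol, not Sall4. Python 3.11.15 with pandas 2.3.3, scipy 1.17.1 and matplotlib 3.10.9 was used for these steps.

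The genes named are the 4 members, members of lists of Oct4-Sox2 targets, regulators of Pou5f1 and Nanog, NuRD subunits, protein partners, POU, SOX and SALL relatives and cell type markers, the 3 genes most alike to each member, and neighbours within 60 kb. The members and lists were chosen with earlier results of these data known. Alternatives were other scalings, filters, tests, windows and read minimums, the replicate block, and leaving out libraries.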

Additional observations from a re-analysis of the deposited data

Results flagged for a closer look

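The response to Cdx2 in RMES cells differed between the rat and the mouse allele for each of the 4 genes in a test of the difference itself (edgeR's quasi-likelihood interaction test over 13605 genes, of which 62.1% passed). The rat minus mouse difference on the log2 scale was 0.49 for Pou5f1, with responses of −1.85 and −2.31, and 0.34 for Sall4, with responses of −1.01 and −1.33. It was −0.44 for Sox2, with responses of −1.93 and −1.47, and −0.69 for Nanog, with responses of −1.12 and −0.40.

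Nanog moved in opposite directions in the cell types. Every induced mESC library was above both WT libraries, whereas both induced RMES libraries were below both libraries labelled WT, with log2 fold changes of −0.40 on the mouse and −1.12 on the rat allele. The difference between mESCs and RMES cells was not tested, and the mouse-allele value was 0.021 with library totals in place of TMM.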

How the results depend on the processing

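Of the values of the 4 genes against WT in mESCs, all 296 under alternatives kept their direction, and 68 moved by more than the spread between replicates. With library totals, Nanog on the RMES mouse allele was 0.021 in place of −0.40, and Sall4 on the mouse allele (−0.91), Nanog (−0.91) and Sall4 (−0.80) on the rat allele fell under 2-fold. The cause was not tested. Leaving out libraries moved Sall4 on the rat allele between −1.05 and −0.97. At any fold, 11158 genes passed with mCdx2, 11294 with rCdx2, 13823 on the RMES mouse and 12069 on the rat allele, and Nanog on the mouse allele (−0.40) then passed. Between mCdx2 and rCdx2, 1 gene passed with library totals, 1 without the filter and 21 with DESeq2, and leaving out a replicate gave 0 to 1. Change 1 had 1 gene past the threshold without the filter and 24 with DESeq2, and change 2 had 2 with DESeq2. Change 3, with replicates left out, had 1317 to 1361, Sox2 at 0.29 to 0.31 and Sall4 at −0.32 to −0.26, no longer past it with fewer samples. The range of Pou5f1 over constructs was then 0.51 to 0.91.

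The replicate numbers were not taken to pair the samples, since the correlation of deviations was not over 0.1 in all 45 pairs of conditions (−0.140 to 0.453). It was positive in all 21 pairs of mutants (0.0942 to 0.193) and 0.453 between mCdx2 and rCdx2, a hint from the data of a shared replicate effect. With the replicate block, Pou5f1 differed among constructs (range 0.71, edgeR adjusted p = 0.00152), 1 gene passed between mCdx2 and rCdx2, and no other call of the 4 genes changed. In the 14 mutant libraries, chosen after seeing the data, 4 genes passed for change 1, and with the replicate block 66, 228 and 8601 passed for changes 1, 2 and 3.

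Of the ATAC peaks near the 4 genes, 4 closed without scaling, 5 with the median ratio set to 0, 16 at 20 reads, 4 at 100 reads, and 22 and 35 in windows of 100 and 150 kb. Opened peaks numbered 1 at 100 reads, 1 within 10 kb and 11 within 100 and 11 within 150 kb. Without scaling the start peaks were −0.51 (Pou5f1), 0.83 (Sox2), −0.67 (Nanog) and 0.35 (Sall4). Cdx2 peaks numbered 3 at 100 reads and 4, 28 and 37 within 10, 100 and 150 kb, and 3 ATAC peaks overlapped one by 50%. The single ATAC and ChIP libraries limit their values to counting error.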
